A study of Danio rerio with 12 samples.

Results

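The nuclear pore and nuclear transport genes comprise the nucleoporins, the importins, the exportins, Ran and the Ran-binding proteins. They were chosen by gene symbol, and then by a minimum of mean signal, whichever way they moved with ethanol. On the Affymetrix Zebrafish Genome Array, 43 probe sets for 37 genes carried a single matching symbol, and 42 of these probe sets reached a mean signal of 50 in control or ethanol-exposed embryos. With 1 probe set per gene, that of highest mean signal, 36 genes remained, of 6410 named genes tested in all. The gene left out, *nxf1a*, an mRNA export receptor gene, had mean signals of 21.2 in control and 37.0 in ethanol-exposed embryos. Of the 36, *nup210* passed the minimum only through the ethanol pools (means of 49.9 in control and 58.4 with ethanol), so that its difference partly follows from the filter. One more probe set was shared by *nup98* and other genes and was not used.

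Total RNA came from pools of 20 zebrafish embryos of the ABTL strain, which carried no named allele. In each experiment 1 pool was exposed to 100 mM ethanol, added to the embryo medium at 2 hours postfertilization (hpf), the other stayed in medium without ethanol, and both were collected at 4.5 hpf, before gastrulation. Each treatment had 6 pools on 6 arrays, 12 in all, and a control and an ethanol pool of the same number (1 to 6) were taken as 1 independent experiment. Values are MAS5 signals, which are background-corrected intensities on a linear scale, and signals of different probe sets cannot be ranked against each other. A pool is a mixture of all embryonic cells, so that fewer cells of a type and less RNA per cell cannot be told apart.

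Molecules cross the nuclear envelope through nuclear pore complexes, large rings built from many copies of the nucleoporins. Importins carry proteins with a nuclear localization signal into the nucleus, exportins carry cargo out, and the small GTPase Ran sets the direction, because it is bound to GTP in the nucleus and to GDP in the cytoplasm. Importin alpha proteins are adaptors between cargo and importin beta. In the zebrafish, the egg supplies the first nuclei with these proteins and transcripts, and the zygotic genome takes over from the mid-blastula stage onwards, which lies inside the exposure period.

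Most nuclear transport transcripts stayed close to their control level after ethanol exposure, and 2 of 36 rose. These were *xpo4*, which encodes an exportin, and *kpna7*, which encodes an importin alpha. No gene fell, by limma or by the methods' own model. A call needed a limma p under 0.03, which stayed under 0.15 after Benjamini-Hochberg adjustment over all tested probe sets, and a log2 fold change of 0.32 or more in size. Among all 9767 tested probe sets 3.78% were called higher, 1.62% were called lower and 5.40% were called in either direction, against 5.56% of the nuclear transport genes in either direction, so that their share lay near that of the whole array. The whole array had 369 higher and 158 lower calls as deposited, 103 and 146 with quantile-normalized arrays, and 120 and 287 with median-centred ones. The median log2 fold change of the 36 genes was 0.04, and that of all tested probe sets was 0.05. After median centring these were -0.07 and -0.05, so that the list stayed beside the whole array. On the deposited scale 20 of the 36 genes, or 55.6%, had a log2 fold change above 0, when 59.7% of all tested probe sets did. The number was 23 after quantile normalization and 12 after median centring. The share of all probe sets under these 2 scalings is not given here, so that 59.7% is no measure for them. A change at least as large as the fold threshold was seen in 4 genes, or 11.1%, compared with 19.1% of all tested probe sets, and 1 of the 4 was *nup210*. Each gene stands here for its probe set of highest signal, while the background holds all tested probe sets, so that these shares are not of like sets. The median SE of the 36 was 0.097, against 0.125 for all tested probe sets. In 6 of 6 experiments, 4 genes were higher with ethanol and 0 were lower, against 8.14% and 3.84% of all tested probe sets. The control and ethanol ranges overlapped for each of the 36 genes, and 0.594% of all tested probe sets had ranges apart. At an unadjusted p under 0.05, 6 genes were higher (12.8% of all probe sets were) and 1 was lower (5.46% of all probe sets were). The plot of fold changes shows the narrow spread of most genes around 0.

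**Figure D1:**
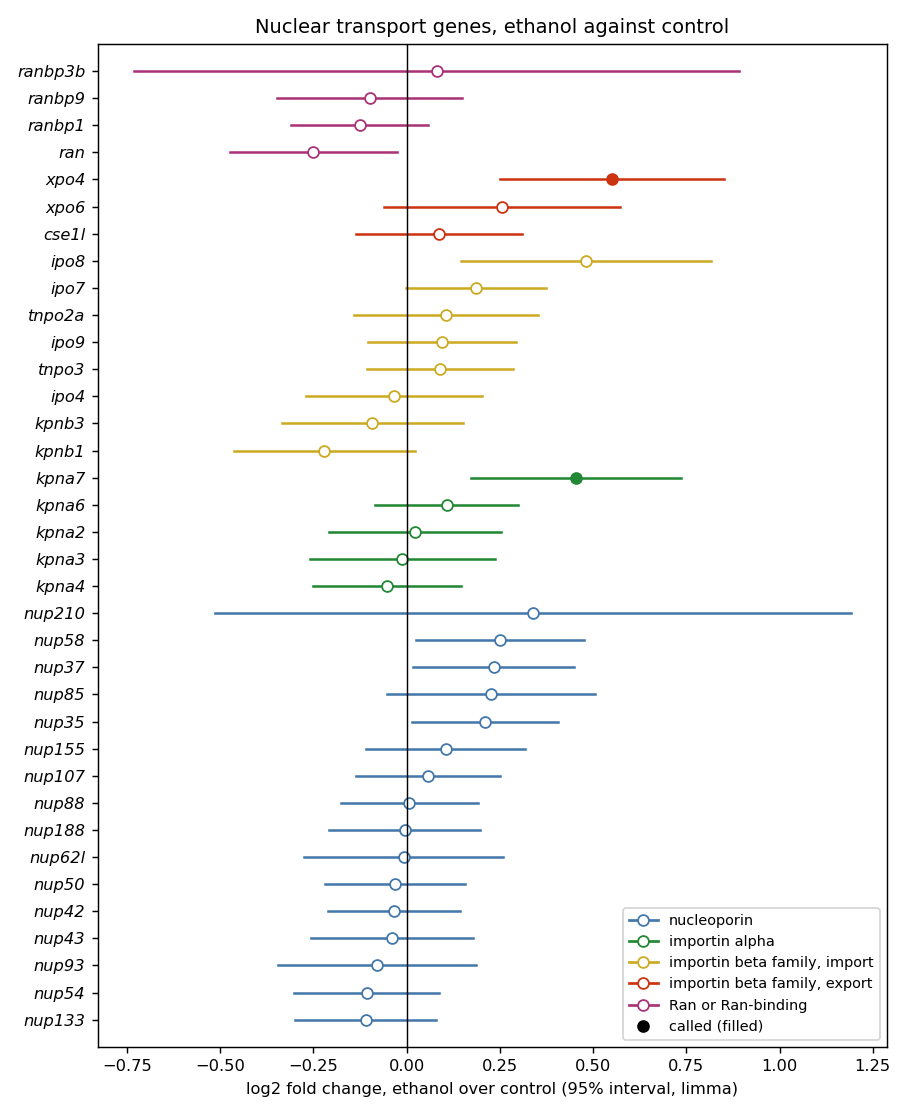
Log2 fold change of each of the 36 nuclear transport genes, ethanol over control, with its 95% interval from limma, coloured by role, filled where the gene was called (*xpo4* and *kpna7*). Most points lie close to 0, and the intervals of *nup210* and *ranbp3b*, both of low signal, are the widest.

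The exportin gene *xpo4* had the largest log2 fold change of the 36. In mammals exportin 4 carries the translation factor eIF5A out of the nucleus, and in mouse cells it also imports Sox2. In experiments 1 to 6 its signal was 636, 346, 511, 658, 702 and 538 in control pools and 832, 792, 777, 882, 940 and 650 in ethanol pools. The ethanol pool was the higher one in 6 of 6 experiments, although the lowest ethanol pool, that of experiment 6, lay under the 2 highest control pools, so that the groups overlapped. The mean was 565 ± 130 (SD, n = 6) for control pools and 812 ± 99.6 (SD, n = 6) with ethanol. On the log2 scale the gene changed by 0.55 (SE 0.13, limma adjusted p = 0.111), or 1.46-fold, with a 95% interval of 0.25 to 0.85 on the log2 scale. An exact permutation test, two-sided, that flips the signs of the 6 log2 ratios gave p = 0.03125, below which it cannot go. The ratio was largest in experiment 2, at 2.29-fold, where the control pool was the lowest of all, and lay between 1.21- and 1.52-fold in the others.

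Since *sox2* encodes a factor that exportin 4 is known to carry in mouse cells, its values are given beside those of *xpo4*, with no test of a relation. On its probe set of highest signal, the log2 ratio of *sox2* was -1.18, -1.32, -0.80, -0.94, -0.88 and -0.85 in experiments 1 to 6, and that of *xpo4* was 0.39, 1.20, 0.61, 0.42, 0.42 and 0.27. On the other tested *sox2* probe set the log2 ratio was -1.30, -0.60, -0.81, -0.61, -0.56 and -1.55. The 2 probe sets thus put the lowest *sox2* ratio in different experiments, 2 and 6, and no order over experiments can be read from them.

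The other gene that rose was *kpna7*. Its mammalian counterpart is the importin alpha of oocytes and early embryos. The signal in experiments 1 to 6 was 191, 209, 216, 324, 374 and 207 in control pools and 381, 293, 310, 376, 415 and 267 in ethanol pools. Control pools 4 and 5 stood above the other 4, and the ethanol pool was higher in 6 of 6 experiments, most of all in experiment 1, at 1.99-fold. The mean was 254 ± 76.1 (SD, n = 6) in control pools and 340 ± 58.5 (SD, n = 6) in ethanol pools, a log2 fold change of 0.46 (SE 0.12, limma adjusted p = 0.136), or 1.37-fold (exact sign-flip permutation, two-sided p = 0.03125). The range of the control pools overlapped that of the ethanol pools. Without experiment 1 the log2 fold change was 0.35.

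Neither call was firm. Both had an adjusted p close to the threshold, and both were lost without the experiment term in the fit, where the adjusted p was 0.456 for *xpo4* and 0.552 for *kpna7*. Leaving out any 1 of the 6 experiments also ended both calls, with an adjusted p of 0.169 to 0.223 for *xpo4* and 0.198 to 0.251 for *kpna7*, while the log2 fold changes stayed between 0.42 and 0.61 and between 0.35 and 0.52. After quantile normalization the adjusted p was 0.160 and 0.233, and after median centring of the arrays 0.164 and 0.193, with log2 fold changes of 0.48 and 0.36, and of 0.45 and 0.35. Both calls were kept with a random experiment block, in the methods' own model and with a signal minimum of 100. They were also kept with a pseudocount of 50 or the mean of each gene's probe sets. Calls over the whole array fell too, from 527 to 1 without the experiment term and to 21 to 143 with 1 experiment left out.

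**Figure D2:**
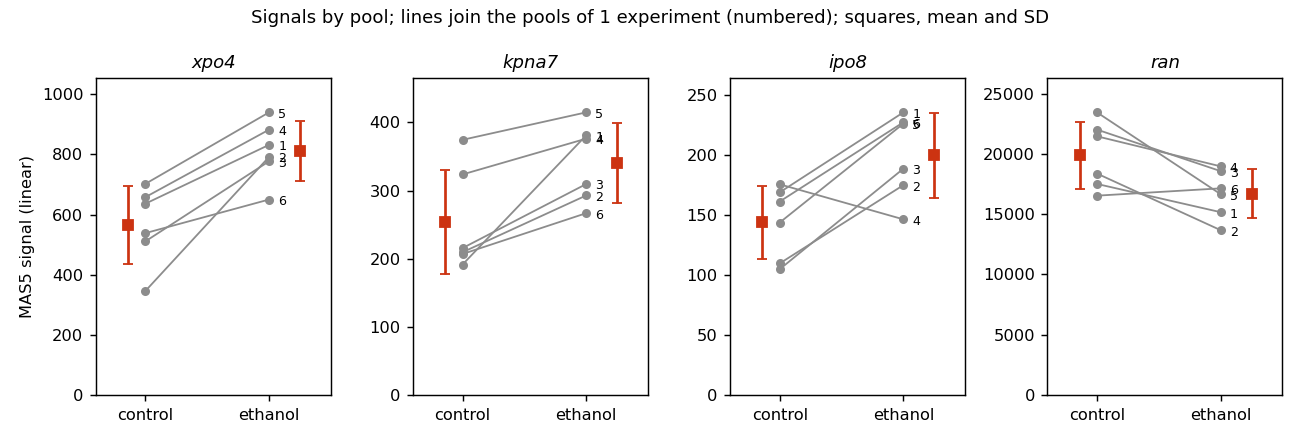
MAS5 signal of *xpo4*, *kpna7*, *ipo8* and *ran* in each pool, on linear axes from 0, with lines joining the control and ethanol pool of each numbered experiment and squares for the mean and SD of 6 pools. All 6 lines rise for *xpo4* and *kpna7*, 5 of 6 slope up for *ipo8* (not in experiment 4), and 5 of 6 slope down for *ran* (not in experiment 6).

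Of the 5 importin alpha genes, *kpna7* was the only one called by limma. The others, *kpna2*, *kpna3*, *kpna4* and *kpna6*, encode adaptors of the same kind and had log2 fold changes of 0.02, -0.01, -0.05 and 0.11. For *kpna4* the signal ran from 10961 to 12505 in control pools (median 11609) and from 10639 to 12420 in ethanol pools (median 10845), with a log2 fold change of -0.05 (SE 0.09, limma adjusted p = 0.778). Its 95% interval was -0.25 to 0.15, and its 2 ranges nearly coincided. After quantile normalization the *kpna4* change was 0.09.

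Among the 8 import receptors of the importin beta family, none passed. At an unadjusted p under 0.05 from limma (12.8% of all tested probe sets were higher at it) there was 1, *ipo8*, whose human counterpart imports Argonaute proteins. Its signal was 169, 110, 105, 175, 144 and 161 in control pools 1 to 6 and 235, 175, 189, 146, 226 and 227 in ethanol pools 1 to 6. The ethanol pool was higher in 5 experiments, and in experiment 4 the order was turned, at 0.834-fold. The log2 fold change was 0.48 (SE 0.15, limma adjusted p = 0.162, exact sign-flip permutation over 6 experiments, two-sided p = 0.0625). It passed without experiment 4 (0.63, limma adjusted p = 0.139). It also passed with experiment as a random block, a signal minimum of 100, a pseudocount of 50 or the mean of each gene's probe sets. The lowest log2 fold change was that of *kpnb1*, which encodes importin beta itself, with a signal from 1823 to 3187 in control pools (median 2180) and from 1487 to 2598 in ethanol pools (median 1925). It was -0.22 (SE 0.11, limma adjusted p = 0.313), lower with ethanol in each experiment but the second. The second probe set of *kpnb1* had a log2 fold change of -0.12 and was higher with ethanol in 3 of 6 experiments. The receptor probe set of highest signal, again no ranking of expression, was that of *kpnb3*, the importin 5 gene, with 4299 to 7770 in control pools (median 6499) and 4583 to 7355 in ethanol pools (median 5802). Its log2 fold change was -0.09 (SE 0.11, limma adjusted p = 0.672). The transport receptors of other cargo were the importins of histones and ribosomal proteins, *ipo4* (-0.03), *ipo7* (0.19) and *ipo9* (0.09), the importin of SR splicing factors, *tnpo3* (0.09), and *tnpo2a* (0.11), a transportin gene. The signal of *ipo7* was higher with ethanol in 6 of 6 experiments, which held for 8.14% of all tested probe sets, but its adjusted p was 0.276 from limma.

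The 2 export receptors besides *xpo4* did not pass. For *xpo6*, whose product exports actin, the signal ran from 1139 to 2203 in control pools (median 1561) and from 1674 to 2079 in ethanol pools (median 1940). The log2 fold change was 0.26 (SE 0.14, limma adjusted p = 0.362), with ratios of 0.76 and 0.60 (log2) in experiments 1 and 2 and of -0.13 to 0.22 in the others. The *cse1l* gene encodes the receptor that returns importin alpha to the cytoplasm, and its signal was 513 to 728 in control (median 687) and 571 to 837 in ethanol pools (median 683). Its log2 fold change was 0.09 (SE 0.10, limma adjusted p = 0.664).

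The transcript of Ran had the lowest log2 fold change of the 36, though it did not pass the test and its size depended on the scaling. In experiments 1 to 6 the *ran* signal was 17514, 18377, 22026, 21469, 23457 and 16540 in control pools and 15169, 13677, 18577, 18974, 16663 and 17148 in ethanol pools. The ethanol pool was lower in experiments 1 to 5 and higher in experiment 6, where the control pool was the lowest of the 6, and the groups overlapped. The log2 fold change was -0.25 (SE 0.10, limma adjusted p = 0.239), with a 95% interval of -0.47 to -0.03 (exact sign-flip permutation over 6 experiments, two-sided p = 0.0625). After quantile normalization the *ran* change was -0.09, when that of *kpnb1*, at -0.22, was the lowest of the 36, and after median centring it was -0.35. Transcripts of *ranbp1*, whose product helps GTP hydrolysis by Ran, and of *ranbp9*, which encodes a scaffold of a ubiquitin ligase complex in spite of its name, had log2 fold changes of -0.13 and -0.10, each lower in 5 of 6 experiments. For *ranbp1* the sign turned after quantile normalization, to 0.03. The second probe set of *ranbp9* was higher with ethanol in 3 of 6 experiments. For *ranbp3b*, the gene of an exportin cofactor, the signal was 27.7 to 90.0 in control (median 58.5) and 33.6 to 100.0 in ethanol pools (median 54.8). With levels this near the signal minimum, its log2 ratios ran from -1.42 to 1.17, and the log2 fold change of 0.08 (SE 0.35, limma adjusted p = 0.925) has a 95% interval of -0.73 to 0.89.

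None of the 16 nucleoporin genes passed, in either direction, and their median log2 fold change was 0.00, with 8 above and 8 below 0, or -0.10 with 5 above 0 after median centring. At an unadjusted p under 0.05 from limma there were 3, all higher with ethanol, *nup35*, *nup37* and *nup58*. At that p 12.8% of all tested probe sets were higher and 5.46% lower. After median centring the 3 genes had log2 fold changes of 0.11, 0.13 and 0.15. Outer ring (Y complex) genes had log2 fold changes of 0.06 (*nup107*), -0.11 (*nup133*), 0.23 (*nup85*), -0.04 (*nup43*) and 0.23 (*nup37*), which do not share a direction. Inner ring genes were *nup35* (0.21), *nup155* (0.10), *nup188* (-0.00) and *nup93* (-0.08). In the central channel, where nucleoporins with phenylalanine-glycine repeats form the barrier, the genes *nup54* (-0.11), *nup58* (0.25) and *nup62l* (-0.01) did not share one either. On the cytoplasmic side there were *nup88* (0.01) and *nup42* (-0.03). Of these genes, *nup35* was higher with ethanol in 6 of 6 experiments (limma adjusted p = 0.251).

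The nucleoporin probe set of highest signal, which does not rank expression, was that of *nup50*, which encodes a mobile nuclear basket protein that helps to release importin cargo. Its signal was 2816 to 3416 in control pools (median 3174) and 2680 to 3365 in ethanol pools (median 3083), with a log2 fold change of -0.03 (SE 0.08, limma adjusted p = 0.871). The lowest log2 fold change was that of *nup133*, with a signal from 1045 to 1217 in control (median 1096) and from 971 to 1060 in ethanol pools (median 1030) and a change of -0.11 (SE 0.08, limma adjusted p = 0.503). It was lower in 5 of 6 experiments, by little, and its control pools differed by no more than 1.17-fold. The membrane nucleoporin gene *nup210*, which passed the signal minimum only through the ethanol pools, had the highest value, 0.34, which is given as a description. Its signal was 12.5 to 67.1 in control pools (median 59.0) and 31.6 to 78.7 in ethanol pools (median 60.0), at or near the signal minimum, and it was higher in 3 of 6 experiments. Without experiment 1, where the control pool was the lowest, the log2 fold change of *nup210* was -0.02.

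The same genes did not move alike in every experiment, as the map of ratios shows. In experiment 1, 30 of the 36 genes were higher in the ethanol pool, or 83.3%, when 57.3% of all tested probe sets were. The median log2 ratio was 0.23 there, compared with 0.09 for all tested probe sets. The ethanol pool was higher for 23 of 36 genes (63.9%) in experiment 2 and for 19 (52.8%) in experiment 3, against 53.2% and 54.5% of all tested probe sets. In experiments 4, 5 and 6 it was higher for 16 of 36 each, or 44.4%, against 55.8%, 56.1% and 54.7%. The medians of the genes were -0.05, -0.07 and -0.04 there. All tested probe sets had medians of 0.03 to 0.05 in experiments 2 to 6. Across the 6 experiments the mean pairwise Pearson r of the log2 ratios was 0.20 among the 36 genes and 0.00 among all tested probe sets, which is a description over 6 points that share arrays and scaling.

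**Figure D3:**
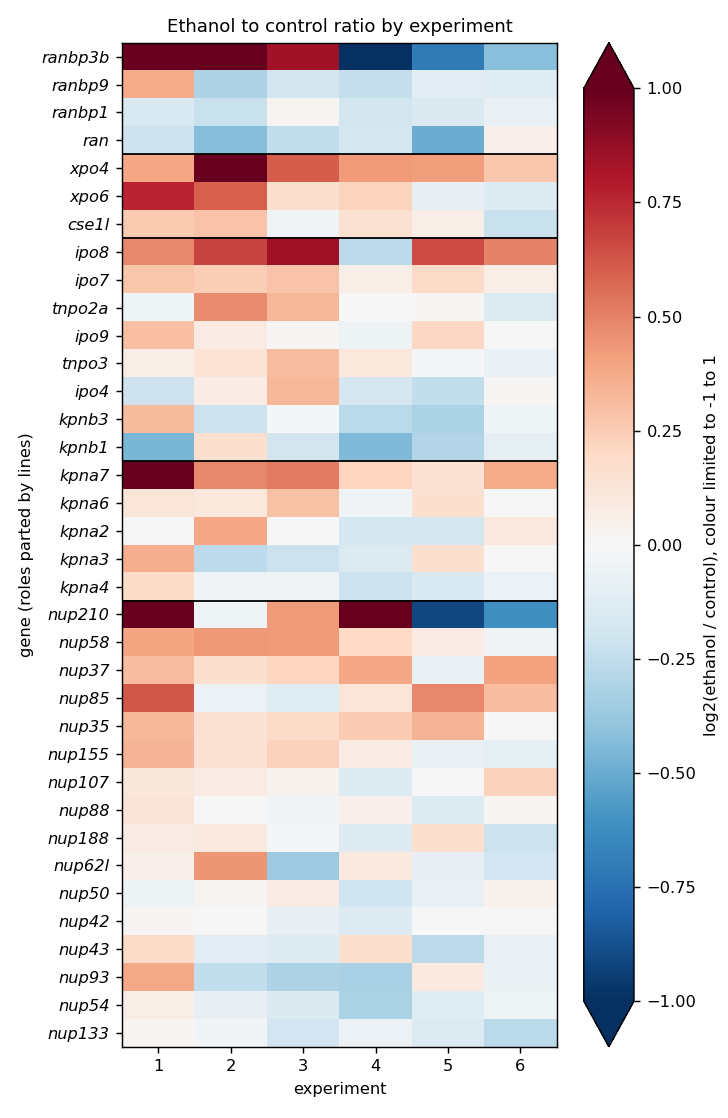
Log2 ratio of the ethanol to the control pool in each of the 6 experiments (columns) for the 36 nuclear transport genes (rows, parted by role), with colours limited to -1 to 1. Experiment 1 is mostly above 0 (30 of 36 genes), experiments 4 to 6 are mixed (16 of 36 each), and *xpo4* and *kpna7* are above 0 in all 6.

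For several genes the signal depended on the experiment, and this difference was not tested against that with ethanol. In the limma fit 9 of the 36 genes, differed between experiments (F test over the experiment term, adjusted p under 0.05), as did 17.9% of all tested probe sets. This test was added after the values had been seen. Each of the 9 had like levels in the control and the ethanol pool of an experiment (Pearson r of 0.88 to 0.99 over 6 experiments), and their means per experiment spanned 1.63- to 2.58-fold. Both follow in part from the choice by the F test and are no further support. That test picks genes whose 2 pools of an experiment agree and whose experiments lie apart. By their means, experiments 1 and 2 stood on 1 side of experiments 3 to 5 for all 9 genes, a grouping that was read from the data and was not tested.

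The clearest case was *nup54*, with an adjusted p of 0.00447 from limma. Its signal was 1490, 1679, 3380, 3410, 3570 and 1920 in control pools 1 to 6 and 1555, 1590, 3057, 2741, 3291 and 1859 in ethanol pools 1 to 6. Both treatments were thus low in experiments 1, 2 and 6 and high in 3, 4 and 5, without overlap. The importin gene *ipo7* ran the other way, at 1756, 1716, 953, 1059, 874 and 1465 in control pools and 2124, 2031, 1161, 1101, 998 and 1533 in ethanol pools. Over the 12 arrays the log2 signals of *nup54* and *ipo7* had a Pearson r of -0.97, the lowest of all pairs among the 36, and *nup54* and *kpnb3* had the highest, 0.94. Both are descriptions over pools that share experiments.

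With *nup54*, the genes *ipo4*, *nup155* and *nup188* were lower in experiments 1 and 2 than in 3 to 5. With *ipo7*, the genes *tnpo2a*, *nup42*, *kpna6* and *nup35* were higher there. Experiment 6 sided with neither throughout. The *tnpo2a* signal was highest in it, at 5661 in the control and 5152 in the ethanol pool, compared with 1996 to 3551 and 2092 to 4337 in the others. For *nup42* the second probe set did not show the difference (limma adjusted p = 0.298), and the other 8 genes had a single tested probe set. In contrast, the means per experiment of *nup133*, *nup88* and *kpna4* spanned 1.07-, 1.09- and 1.11-fold.

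**Figure D4:**
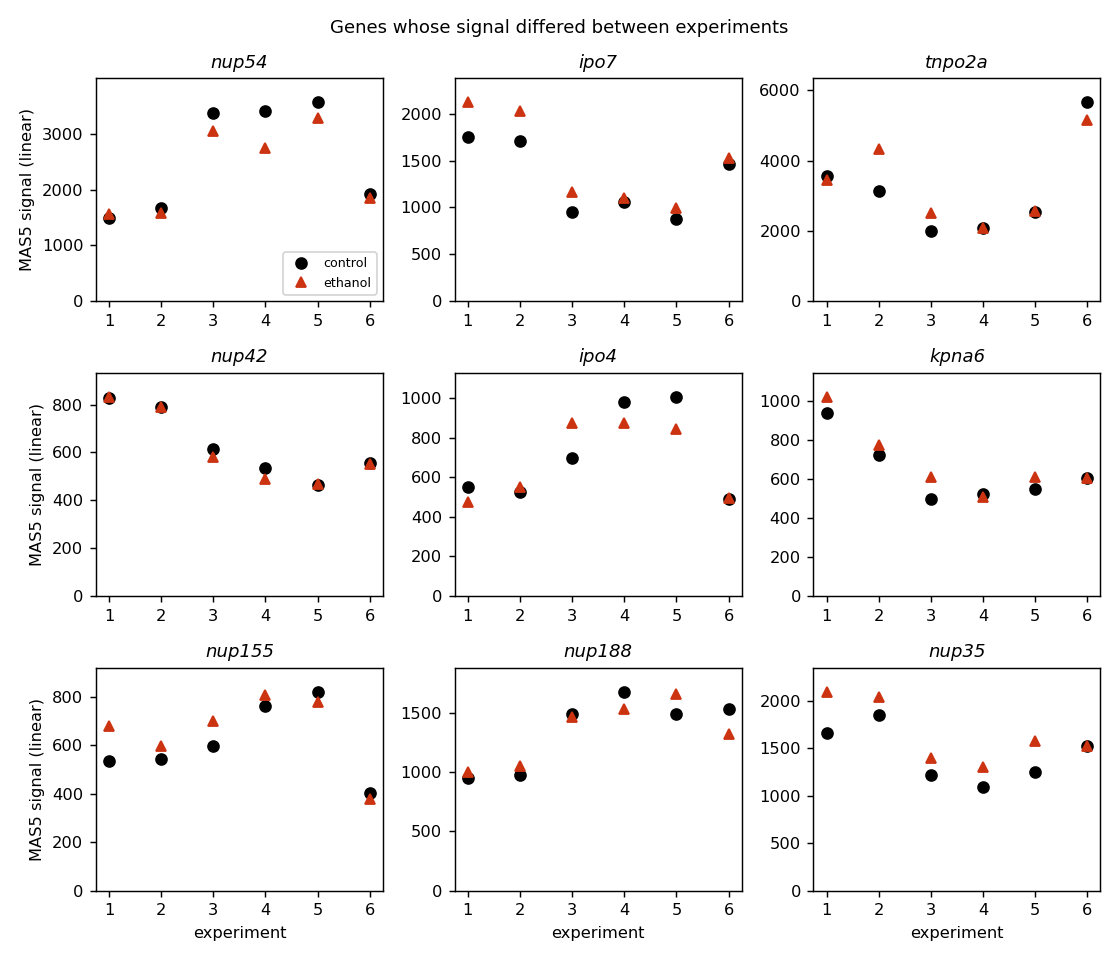
MAS5 signal by experiment in control (circles) and ethanol pools (triangles) for the 9 nuclear transport genes that differed between experiments, on linear axes from 0. The pools of experiments 1 and 2 lie on 1 side of those of experiments 3 to 5 in each panel but that of *nup155*, where this holds for the means per experiment and not for single pools.

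Of the 36 genes, 6 had a second tested probe set, and no second probe set was called with ethanol. The 2 probe sets of a gene had log2 fold changes of -0.01 and -0.12 for *kpna3*, -0.22 and -0.12 for *kpnb1*, 0.25 and 0.11 for *nup58*, and -0.10 and -0.05 for *ranbp9*. They differed in sign for *nup42* (-0.03 and 0.11) and *nup43* (-0.04 and 0.31). The genes *xpo4*, *kpna7*, *ipo8* and *ran* had a single tested probe set, so that their values rest on it alone.

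Genes that work with these receptors but lie outside the symbol rule were read from 5 lists. Of 42 tested genes, 1 was called, against 5.40% of all probe sets. It was *snupn*, which encodes snurportin, the adaptor that brings capped small nuclear RNPs to importin beta. Its signal was 244 to 471 in control pools (median 306) and 340 to 574 in ethanol pools (median 400), higher in 6 of 6 experiments, with a log2 fold change of 0.40 (SE 0.09, limma adjusted p = 0.103, exact sign-flip permutation over 6 experiments, two-sided p = 0.03125). The *snupn* call was lost when any 1 experiment was left out, without the experiment term, and after quantile normalization or median centring. The *phax* gene encodes the export adaptor of small nuclear RNA precursors. Its signal was also higher in 6 of 6 experiments, with a log2 fold change of 0.38 (SE 0.12, limma adjusted p = 0.167). The *hikeshi* gene, for the import carrier of heat shock protein 70, had one of -0.23 (adjusted p = 0.307). In the other 4 lists no gene was called, by limma or by the methods' own model, and 1 had an unadjusted p under 0.05. Of 9 further genes of pore or pore-associated proteins 7 lay above 0 (median 0.09), or 3 after median centring (median -0.02). Of 5 genes of the Ran cycle 2 lay above 0 (median -0.00, and -0.11 after median centring). Among 15 genes of mRNA export the median was -0.06, with -0.00 after quantile normalization and -0.17 after median centring, and the lowest was *ncbp2*, for the small subunit of the nuclear cap-binding complex, at -0.39 (SE 0.14, limma adjusted p = 0.225), lower in 6 of 6 experiments. With a pseudocount of 50, *phax* and *ncbp2* passed. Among 10 genes of the lamina and nuclear envelope the median was 0.03, and -0.08 after median centring.

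Markers of other embryonic layers and of the egg were measured on the same arrays. Of 11 tested maternal oocyte transcripts 2 rose, *btg4* and *mos*, at 0.55 and 0.51 (adjusted p = 0.108 and 0.0940 from limma), 9 lay above 0 and the median was 0.09, which median centring turned to -0.02 and quantile normalization raised to 0.27. Their summed signal was 46942 to 61217 in control and 48199 to 62297 in ethanol pools, lower with ethanol in 2 of 6 experiments. Of 10 enveloping layer genes 1 fell, *anxa1c*, 9 lay below 0 and the median was -0.23 (-0.33 after median centring). Their sum was 36060 to 47497 in control and 34853 to 44085 in ethanol pools, lower with ethanol in 5 of 6 experiments. Of 6 yolk syncytial layer genes 2 fell, *apoa1a* and *tfa*, 5 lay below 0 and the median was -0.36 (-0.46 after median centring). The sum of the 6 was 2518 to 4503 in control and 2282 to 3569 in ethanol pools, lower with ethanol in 5 of 6 experiments. Of 8 germ plasm genes none passed in limma (median 0.24, and 0.14 after median centring). The 5 at an unadjusted p under 0.05 went both ways, *nanos3*, *tdrd7a* and *buc* higher and *ddx4* (-0.27) and *dnd1* (-0.59) lower. At that p 12.8% of all tested probe sets were higher and 5.46% lower. The summed signal of the 8 was 3229 to 4681 in control and 3557 to 4905 in ethanol pools, lower with ethanol in 1 of 6 experiments. Of 20 early zygotic genes 1 rose and 1 fell, at a median of -0.10 (-0.20 after median centring). Their sum was 56511 to 71441 in control and 51769 to 61602 in ethanol pools, lower with ethanol in 5 of 6 experiments. Probe sets of high signal weigh most in such sums, and the sums were not tested. Among all tested probe sets 3.78% were called higher and 1.62% lower. Without the experiment term only 1 probe set was called in all, so that at most 1 of the marker calls was kept. How these calls fared under the other settings is not given here. The part of these shifts in the values of *xpo4* and *kpna7* was not tested.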

How the data were processed

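RNA was labelled with biotin and hybridized to 12 1-colour Affymetrix arrays. The authors computed MAS5 signals in Affymetrix Expression Console (version not given in the sources used here), brought all arrays to the same target level and deposited linear intensity values. The mean of each array without its lowest and highest 2% of signals was 499.7, which is not the target level that the methods state, so that the minimum of 50 refers to the deposited scale, and the median signal was 91.6 to 106.6. MAS5 signal near the minimum is noisy, which widens the intervals of low genes. The number of arrays limits the precision. Detection calls were not used here.

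Gene symbols came from the 2016 annotation of the platform. Of 15617 probe sets, 10802 had 1 gene symbol, 135 several and 4680 none. After removal of 115 Affymetrix controls and of 5735 probe sets whose mean was under 50 in both treatments, the log2 signals of 9767 were fitted in limma 3.58.1 (R 4.3.3) with treatment and experiment as factors and Benjamini-Hochberg adjustment over all of them. A check of the steps on simulated data set a bar only for changes larger than those of *xpo4* and *kpna7*, so that it does not speak for changes of their size. The methods fit experiment as a random effect and use Storey q. The alternative called the methods' own model kept experiment as a factor, with t tests without limma's moderation and a Storey-type q. A random experiment block with Benjamini-Hochberg adjustment was a separate alternative, and no run joined a random effect with Storey q. Tables and exact tests were made in Python 3.11.15 (scipy 1.17.1, numpy 2.4.6, pandas 2.3.3) and plots with matplotlib 3.10.9.

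The pairs come from the numbers in the labels, since the study fitted independent experiments of 1 control and 1 ethanol pool each. Each array's deviation from its treatment mean correlated with that of the array of the same number at 0.448, 0.502, 0.373, 0.396, 0.456 and 0.669 for experiments 1 to 6. In experiments 1, 3 and 4 another ethanol array was closer.

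Described in full were called genes and, in each role, those with the highest signal and the highest and lowest log2 fold change. The members and lists were chosen with earlier results of these data known. The alternatives were other models, thresholds, scalings, filters, pseudocount and probe set rules, and leaving out each experiment. No sequences were used here.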

Additional observations from a re-analysis of the deposited data

Results flagged for a closer look

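Of 72 sets of 6 log2 signals, 36 genes in each of 2 treatments, 2 held a pool that stood apart from the other 5 by Dixon's test, and chance alone is expected to give about 1 in 20. For *nup210* the control pool of experiment 1 had a log2 signal of 3.64 (a signal of 12.5), while the other control pools ran from 38.2 to 67.1. All of these signals lie near the minimum of 50. For *ranbp9* the control pool of experiment 6 had a log2 signal of 10.62 (a signal of 1574), and the other control pools ran from 2083 to 2221.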

How the results depend on the processing

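Leaving out 1 experiment at a time, limma called 21 to 143 probe sets in all, 0 to 1 nuclear transport genes as higher (the 1 was *ipo8*, without experiment 4), 0 as lower and 0 genes of the lists outside the symbol rule, while 5 to 8 of the 36 genes differed between experiments and the median of the 36 ran from -0.01 to 0.07. The fewest probe sets were called without experiment 3. Without the replicate block, the experiment term that carries the pairing, 1 probe set was called in all, with 0 nuclear transport genes and 0 listed genes. At an adjusted p under 0.05 there were 33 probe sets, 0 nuclear transport genes and 0 listed genes. With no filter on low signal there were 2, 0 and 0, and 1 of the genes differed between experiments. With quantile normalization there were 249, 0 and 0, and with median centring 407, 0 and 0. A signal minimum of 100 gave 824 probe sets, 3 nuclear transport genes and 3 listed genes, and log2(signal + 50) gave 726, 3 and 3. The cause was not tested. The random replicate block gave 614 probe sets and 3 nuclear transport genes, adding *ipo8*, and the methods' own model gave 548 and 2. No nuclear transport gene was called lower in any of these settings. The sign turned for 3 genes with quantile normalization, for 8 with median centring and for 2 when probe sets of a gene were averaged, *xpo4* and *kpna7* not among them. The low signals of *nup210* and *ranbp3b* limit what can be read from them, since their 95% intervals, -0.51 to 1.19 and -0.73 to 0.89, include the change of *xpo4*.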
